A study of Rattus norvegicus with 20 samples.

Results

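The response of INS-1 cells (insulin-producing rat insulinoma cells, used as a stand-in for beta cells) was measured after exposure to islet amyloid polypeptide (IAPP) in the presence of C4b-binding protein (C4BP), against the DMSO solvent. The comparison takes the 5 arrays whose title word is C4BP and the 5 whose title word is DMSO, which are 10 of the 20 Rat Gene 2.0 arrays in the study. All groups are INS-1 cells that, per the series description, came from 5 clones kept apart over 10 passages, were seeded at 100000 cells per well of a 12-well plate, grew for about 48 h to 70% confluency and were treated for 10 h. The stated doses are 77 uM monomeric IAPP and 0.6 uM C4BP, with 1% DMSO as the solvent of IAPP, and the sample protocols give 300 ug/ml for either protein. Whether a title number stands for a clone, and whether wells given C4BP without IAPP also held DMSO, is not stated in the labels.

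The group words of the titles need a caution. No label says what C4BP and C4BPD stand for. Given the 4 conditions described, C4BP is probably C4BP with IAPP, and C4BPD probably C4BP without IAPP. A separate treatment field gives the condition of that reading in 1 of the 10 compared arrays and in 3 of all 20. Groups were taken from the titles, and every direction below rests on them. Grouped by the treatment field, 0 genes passed the limma test at an adjusted p of 0.05, 653 had an unadjusted p under 0.05, and the smallest adjusted p was 0.612. The arrays titled C4BP are called the combination arrays from here on.

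IAPP, also called amylin, is a small hormone that beta cells store and release with insulin. Its human form assembles into the amyloid found in islets in type 2 diabetes, and its early assemblies are toxic to beta cells in culture. C4BP is a large plasma protein that restrains the complement cascade and also binds amyloid. Beta cells make much secretory protein, so their ER folding capacity, amino acid supply, zinc handling and redox defence are commonly read as stress outputs.

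The label of the cells was checked against marker genes. All 7 measured beta-cell markers, among them Iapp, Ins1, Ins2 and Chga, lay above the median of all probe sets on all 10 arrays, and their summed intensity ran from 45670 to 49217 in DMSO and from 43011 to 46524 in the combination. Of the 5 measured immune and endothelial markers, 0 lay above that median on all arrays (summed intensity 449 to 492 in DMSO, 465 to 545 in the combination). Above it on all 10 arrays were 3 of 5 fibroblast and stellate, 3 of 8 acinar and duct and 3 of 9 alpha, delta and PP cell markers. The glucagon gene Gcg, an alpha-cell hormone, was also above it, with a mean of 10144 over the 10 arrays and differed by -0.05 on the log2 scale (adjusted p = 0.566). Array medians ran from 170.0 to 182.4 and correlations between arrays from 0.9851 to 0.9964, and no array pair was identical.

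Levels are the deposited linear intensities, and differences are on the log2 scale from a limma fit to all 20 arrays, combination minus DMSO, with adjusted p-values over 18166 genes. Of these genes, 1082 passed an adjusted p of 0.05, or 5.96%. Higher in the combination were 495 (2.72%) and lower were 587 (3.23%). These shares are the background for the gene lists below. All lists were written with earlier results of these data known. A list's share above the background is therefore a description and no independent evidence about a pathway. Most of these differences were small. The median size among called genes was 0.25 on the log2 scale, against 0.056 over all genes, and the median difference of all genes was 0.005. At a 2-fold limit 10 genes were higher and 0 lower, and at 1.5-fold 21 were higher and 27 lower. In bulk wells, fewer cells that express a gene and less RNA per cell cannot be told apart. The 10 genes past 2-fold were the transcription inhibitors Id3 and Id1, the metallothioneins Mt1 and Mt1f, Plekhg6, the stress genes Trib3, Chac1 and Jun, the carnitine palmitoyltransferase Cpt1a and heme oxygenase Hmox1.

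**Figure D1:**
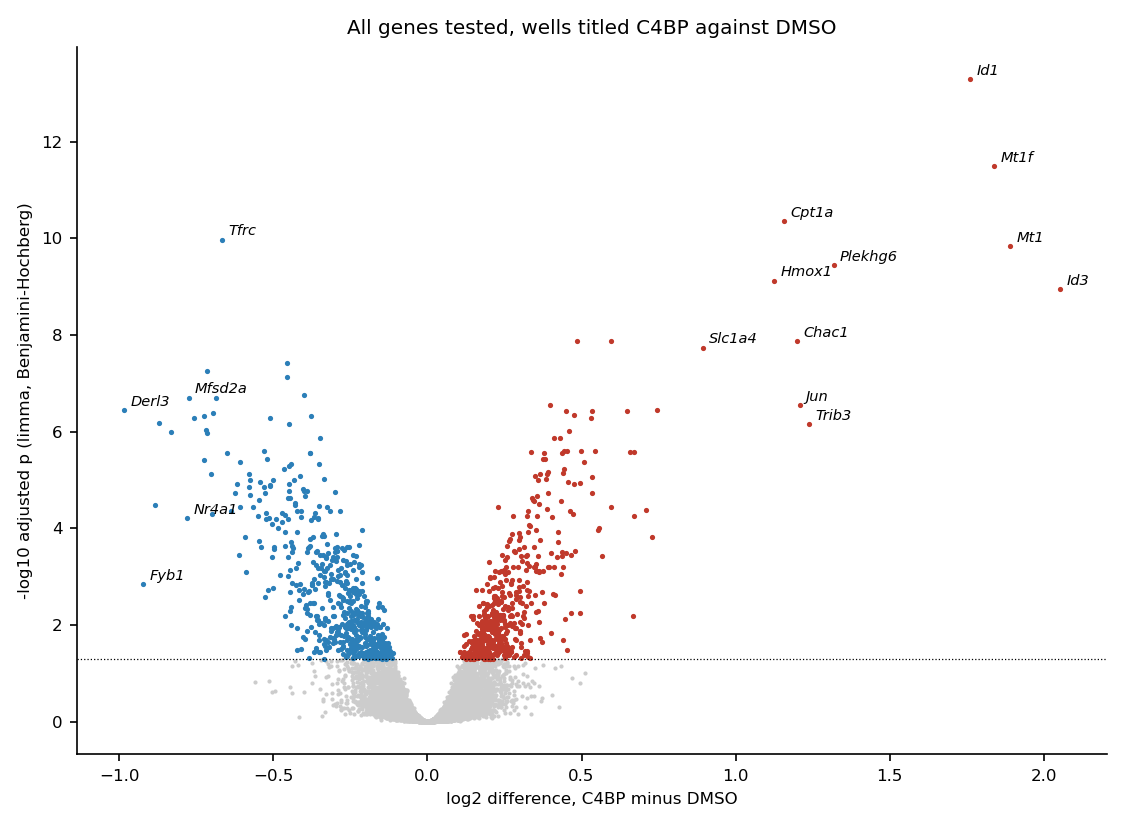
Each point is 1 of 18166 genes, with the log2 difference of the combination from DMSO on the x axis and -log10 of the limma adjusted p on the y axis; red points rose and blue points fell past an adjusted p of 0.05 (dotted line). The points to the far right are Id3, Mt1, Mt1f and Id1, with differences of 1.76 to 2.05, and the lowest value on the left is that of Derl3 at -0.98.

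Id3 had the highest log2 difference of all genes tested, and Id1 rose with it. Id1 and Id3 encode helix-loop-helix proteins that lack a DNA-binding region and hold back other transcription factors of their class; they are classic early targets of bone morphogenetic protein (BMP) signalling through SMAD proteins. Id1 read 594.6, 671.3, 720.9, 633.1 and 712.5 on DMSO arrays 1 to 5 and 2201.9, 2289.7, 2223.7, 2372.2 and 2173.4 on the combination arrays. Id3 read 262.4, 352.2, 301.9, 405.0 and 416.7 in DMSO and 1171.9, 1425.1, 1364.6, 1637.8 and 1551.0 in the combination. The groups lay far apart for both genes, with every combination array above every DMSO array. Id3 was 4.15-fold higher (log2 2.05, 95% interval 1.79 to 2.31, adjusted p = 1.12e-09) and Id1 3.39-fold higher (log2 1.76, 1.64 to 1.88, adjusted p = 5.12e-14).

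Plekhg6 rose from a mean of 311 ± 33.4 to 774 ± 44.9 (SD, n = 5 each), or 2.49-fold (adjusted p = 3.54e-10). Of the 36 measured members of the BMP and SMAD list, 8 were higher (22.2%, against 2.72% of all genes) and 2 lower (5.6%, against 3.23%). The list's median was 0.03 against 0.005 for all genes. Plekhg6, 1 of the 8, was put into this list because of earlier results of these data, so it is no evidence about the pathway. Smad9, a BMP-regulated SMAD, rose from 1060 ± 61.0 to 1387 ± 83.2 (log2 0.39, adjusted p = 3.94e-05). The SMAD inhibitor Smad7 (0.39, adjusted p = 0.000615), the BMP pseudoreceptor Bambi (0.33, adjusted p = 8.99e-05) and the receptor gene Acvr1c (0.44, adjusted p = 0.000615) also rose. The 2 lower members were Smad5 at -0.16 (adjusted p = 0.0176) and Smad2 at -0.11 (adjusted p = 0.0474). The other 26 did not pass, among them Id2 at 0.08 (adjusted p = 0.304), Id4 at 0.17 (adjusted p = 0.257) and Smad6 at 0.00 (adjusted p = 0.992). Smad7, Bambi, Acvr1c, Id2, Id4 and Smad6, like Gclc and Atf4 below, were chosen for naming after their values were seen.

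Of 5 measured metallothionein genes, Mt1 and Mt1f rose. Metallothioneins are small cysteine-rich proteins that bind zinc and copper, and MTF1, the zinc-sensing factor, switches them on through short metal response elements; the same factor drives Slc30a1, which exports zinc from the cell. The promoters of Mt1 and Slc30a1 are shown because their levels rose and both hold this element (TGCACNC or TGCGCNC on either strand, in capitals). The sequences come from RefSeq (GRCr8), at chr19:10833016-10833165 (minus strand) and chr13:106021909-106022018 (plus strand), 5′ to 3′ along the gene, covering positions -190 to -41 and -110 to -1 from the start site.
Mt1: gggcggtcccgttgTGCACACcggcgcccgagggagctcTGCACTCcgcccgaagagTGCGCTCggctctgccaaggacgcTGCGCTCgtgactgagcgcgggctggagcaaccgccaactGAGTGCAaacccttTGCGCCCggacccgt
Slc30a1: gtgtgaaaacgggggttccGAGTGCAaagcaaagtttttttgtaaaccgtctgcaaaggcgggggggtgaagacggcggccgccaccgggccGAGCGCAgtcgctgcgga
In the window of 250 bases before to 50 after the start site, Mt1 held 6 matches and Slc30a1 held 2. Matches are common, with 25% of 27457 promoters holding at least 1. Of the 3 members of the metallothionein and zinc list called higher, 2 had a match. So did 7 of the 8 other members with a promoter in the table, counted whether called lower or not called.

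Mt1 read 1957.0, 2576.8, 3050.7, 3159.1 and 2040.9 on DMSO arrays 1 to 5 and 8386.8, 9646.8, 9113.4, 9683.6 and 9710.4 on the combination arrays. For Mt1f the DMSO arrays read 1002.0, 1127.8, 1418.3, 1385.0 and 1125.3 and the combination arrays 3966.8, 4096.4, 4310.6, 4546.5 and 4601.9. The lowest combination array was more than any DMSO array in both genes, and DMSO arrays 3 and 4 were the highest of their group in both. The rise was 3.71-fold in Mt1 (log2 1.89, 95% interval 1.68 to 2.1, adjusted p = 1.46e-10) and 3.58-fold in Mt1f (log2 1.84, 1.68 to 2.0, adjusted p = 3.19e-12). Metallothionein genes are close copies, and how far their probe sets read each other's RNA was not tested. The other metallothioneins did not pass: Mt2A lay at 0.11 (adjusted p = 0.4), Mt3 at -0.01 (adjusted p = 0.963) and Mt4 at -0.09 (adjusted p = 0.558). Slc30a1 rose 1.64-fold, from 457 ± 70.2 to 747 ± 107 (adjusted p = 4.15e-05). Of the 15 measured members, 3 were higher and 2 lower (20.0% and 13.3%, against 2.72% and 3.23% of all genes). The lower pair were the zinc importer Slc39a14 at -0.28 (adjusted p = 0.00128) and Slc30a8, which loads zinc into insulin granules, at -0.17 (adjusted p = 0.0112).

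**Figure D2:**
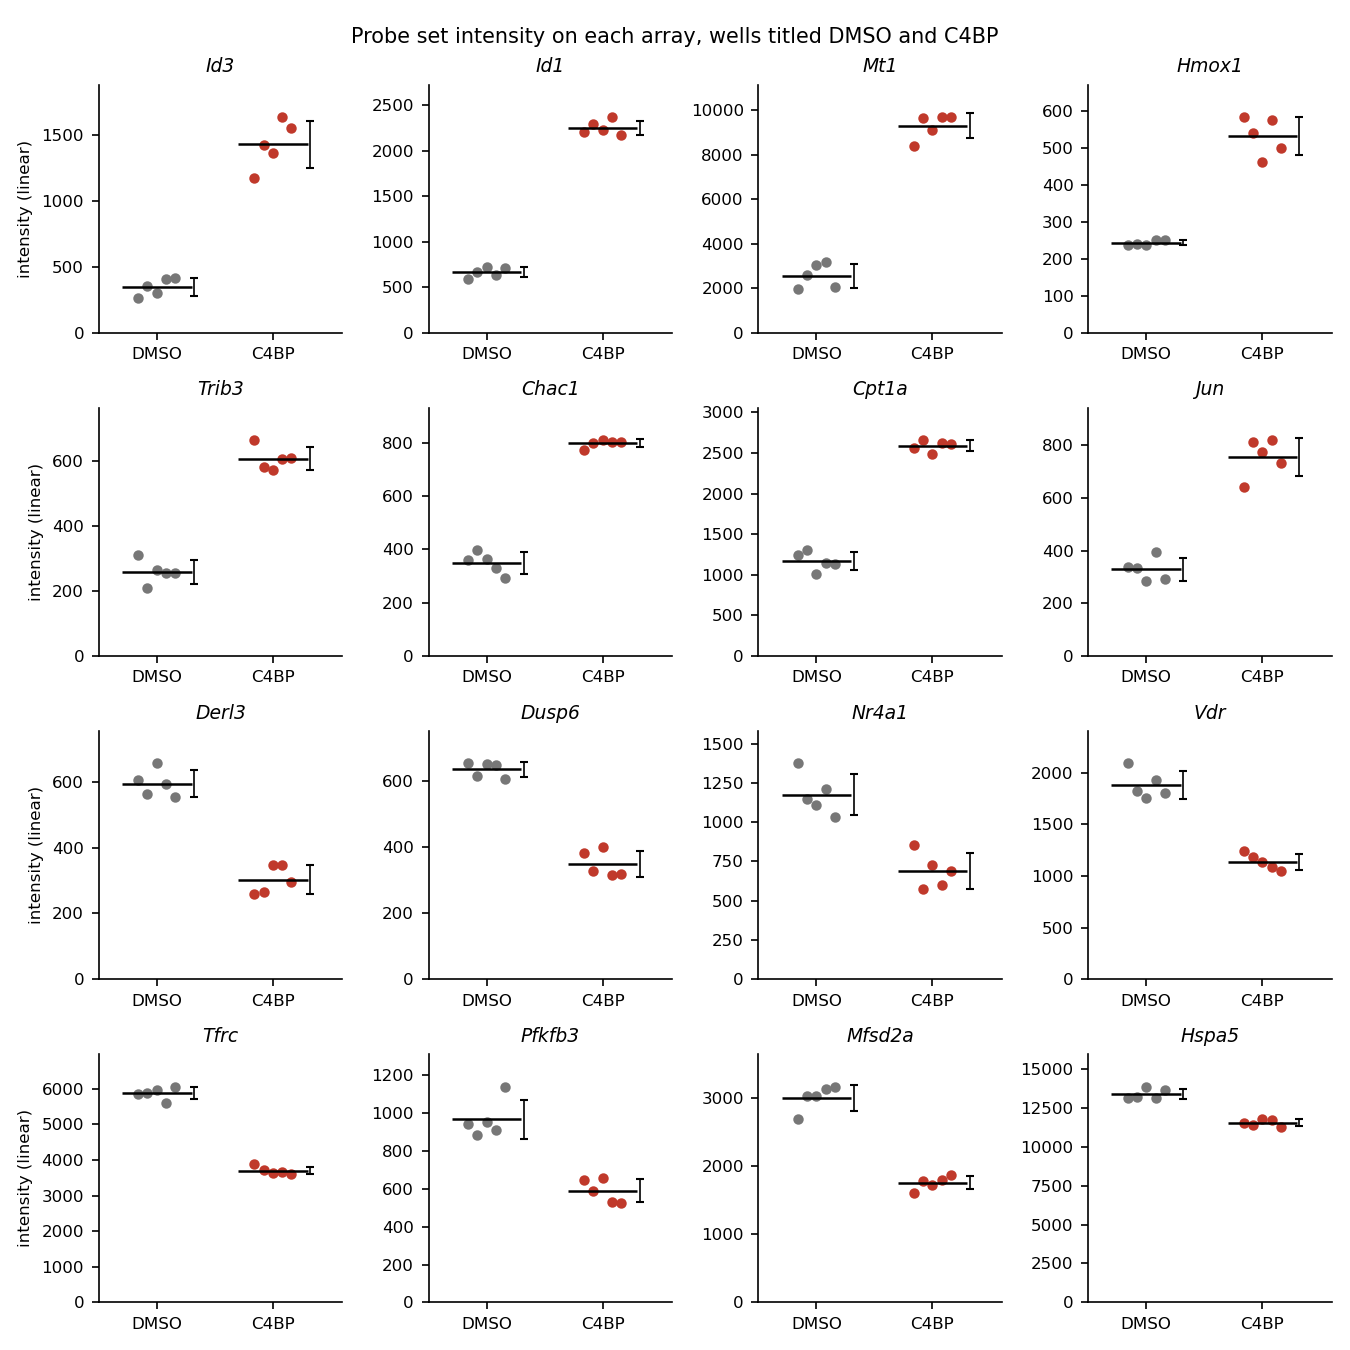
Linear intensity of 16 selected genes, each in its own panel starting at 0, with 1 point for each of the 5 DMSO arrays (grey) and 5 combination arrays (red, titled C4BP), a line at the mean and a bar of 1 SD to either side. Id1, Mt1 and Hmox1 stood higher on every combination array than on any DMSO array, and Tfrc and Derl3 lower on every one.

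Antioxidant genes that NRF2 controls rose widely. NRF2 is the factor released from KEAP1 when electrophiles or oxidants modify the latter, and its targets make glutathione, reduce quinones and break down heme. Of 23 measured members, 12 were higher and 0 lower (52.2% higher, against 2.72% of all genes), with a median of 0.22. Hmox1, which degrades heme, read 238.0, 239.7, 237.4, 252.2 and 251.0 on DMSO arrays 1 to 5 and 584.5, 541.0, 462.3, 576.6 and 501.4 on the combination arrays. The DMSO arrays hardly varied and every combination array stood well above them, for a 2.18-fold rise (log2 1.12, 95% interval 0.99 to 1.26, adjusted p = 7.5e-10). Nqo1, a quinone reductase, rose from 810 ± 69.2 to 1276 ± 106 (log2 0.66, adjusted p = 2.59e-06). Gclm, the modifier subunit of the first enzyme of glutathione synthesis, rose from 3492 ± 84.4 to 4414 ± 187 (log2 0.34, adjusted p = 2.59e-06), and the sulfiredoxin Srxn1 from 400 ± 12.3 to 513 ± 8.82 (log2 0.36, adjusted p = 9.83e-06). The cystine carrier Slc7a11 (0.67, adjusted p = 0.00648) and the catalytic subunit Gclc (0.50, adjusted p = 1.16e-05) were higher as well. The short antioxidant element TGACNNNGC was in the promoter window of 1 of 11 called members and 5 of 10 others, against 12.2% of all promoters.

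Iron genes moved with less force, apart from the transferrin receptor. Tfrc, which brings transferrin-bound iron into the cell and whose mRNA is destabilised when iron is plentiful, read 5866.2, 5884.7, 5973.2, 5608.1 and 6063.4 on DMSO arrays and 3881.9, 3727.3, 3648.7, 3671.7 and 3598.1 on the combination arrays. The groups did not overlap, and the combination stood at 0.63 of the DMSO level (log2 -0.67, 95% interval -0.74 to -0.59, adjusted p = 1.06e-10). Of 17 measured iron genes, 4 were higher (23.5%, against 2.72% of all genes) and 1, Tfrc, lower (5.9%, against 3.23%). The ferritin light chain Ftl1, which stores iron, was higher by 0.19 (adjusted p = 0.0111) and the heme-sensing repressor Bach1 by 0.23 (adjusted p = 0.0191). The iron exporter Slc40a1 was near the threshold at 0.21 (adjusted p = 0.0499), with array values that overlapped between the groups. Without DMSO array 5, C4BP array 1 or C4BP array 3, only 2 iron genes were higher. Bach1 lost its call on leaving out any of those arrays (adjusted p up to 0.056). Slc40a1 lost its call without DMSO array 1, 2, 3 or 5 or C4BP array 1, 3 or 4 (up to 0.15).

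Genes of the amino acid response rose as well. When amino acids run short or the ER is stressed, kinases that act on eIF2 favour translation of ATF4, which raises amino acid carriers, biosynthetic enzymes and tRNA synthetases together with the regulators CHOP (gene Ddit3), Trib3 and Chac1. Trib3, a pseudokinase that dampens AKT, read 311.9, 209.0, 263.2, 255.8 and 256.3 on DMSO arrays and 664.1, 581.5, 573.2, 605.5 and 610.2 on the combination arrays. Chac1, which degrades glutathione, read 360.3, 397.9, 365.8, 331.2 and 292.3 in DMSO and 772.6, 801.8, 811.1, 803.7 and 805.3 in the combination. Neither gene's groups overlapped, and the rises were 2.36-fold (log2 1.24, 95% interval 0.99 to 1.48, adjusted p = 7.01e-07) and 2.3-fold (log2 1.2, 1.02 to 1.38, adjusted p = 1.35e-08). Ddit3 did not pass, at 660 ± 60.2 in DMSO and 740 ± 44.4 in the combination (log2 0.17, 95% interval 0.01 to 0.33, adjusted p = 0.285). Of 21 measured ATF4 and CHOP regulators, 5 were higher (23.8%, against 2.72% of all genes). The 1 lower member (4.8%, near the 3.23% of all genes) was Vegfa at -0.15 (adjusted p = 0.0494). The higher ones included Atf5 (log2 0.44, adjusted p = 7.25e-06), the stress cytokine Gdf15 (0.57, adjusted p = 0.000363) and Atf4 itself (0.30, adjusted p = 0.00114).

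Among the enzymes, called members were all higher. Cytosolic aminoacyl-tRNA synthetases, which charge tRNAs with their amino acids, were higher in 10 of 19 measured members (52.6%, against 2.72% of all genes). They were lower in 0, with a median of 0.18. Cars1 rose from 912 ± 42.0 to 1322 ± 66.8 (log2 0.54, adjusted p = 3.69e-07), Aars1 from 2234 ± 67.7 to 2940 ± 66.8 (0.40, adjusted p = 2.74e-07), Iars1 from 2259 ± 99.5 to 2928 ± 127 (0.37, adjusted p = 3.59e-06) and Mars1 from 2067 ± 102 to 2663 ± 207 (0.36, adjusted p = 0.000169). Serine, asparagine, proline and one-carbon synthesis had 9 higher (52.9%, against 2.72% of all genes) and 0 lower of 17, with a median of 0.17. In that group Psat1, a serine synthesis enzyme, rose from 4924 ± 261 to 6715 ± 152 (0.45, adjusted p = 3.69e-07), and the asparagine synthetase Asns from 3337 ± 165 to 4334 ± 142 (0.38, adjusted p = 2.77e-06).

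Amino acid transporters were split, with 7 of 19 higher and 3 lower (36.8% and 15.8%, against 2.72% and 3.23% of all genes). The neutral amino acid carrier Slc1a4 read 865.3, 713.6, 820.8, 770.0 and 858.1 in DMSO and 1603.5, 1575.6, 1469.6, 1331.0 and 1494.3 in the combination. Every combination array exceeded every DMSO array, for a 1.86-fold rise (log2 0.89, adjusted p = 1.82e-08). The cationic carrier Slc7a1 rose by 0.53 (adjusted p = 5.32e-07) and the glycine carrier Slc6a9 by 0.44 (adjusted p = 2.77e-06). The 3 lower members, Slc36a4, Slc16a10 and Slc38a4, lay at -0.22, -0.18 and -0.14, and only 1 of them was lower without DMSO array 2, DMSO array 5 or C4BP array 4.

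Promoters of Chac1, Slc1a4 and Aars1 are shown for the composite element that ATF4 binds with C/EBP partners (TGATGNAA, capitals, here read on the opposite strand). They are from RefSeq (GRCr8) at chr3:126795931-126796010 (plus strand), chr14:98761733-98761812 (minus strand) and chr19:55908332-55908411 (plus strand), 5′ to 3′ along the gene.
Chac1: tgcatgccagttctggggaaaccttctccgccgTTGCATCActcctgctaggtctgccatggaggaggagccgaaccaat
Slc1a4: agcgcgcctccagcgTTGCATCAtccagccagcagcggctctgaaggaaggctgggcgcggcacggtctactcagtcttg
Aars1: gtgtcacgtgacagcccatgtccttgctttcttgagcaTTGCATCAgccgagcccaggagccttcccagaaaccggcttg
The element was in 3.82% of all promoter windows. Among the 4 amino acid response lists, 13 of 28 called-higher members with a promoter held it, and 4 of 37 other members did. Trib3, Cars1, Iars1, Mars1 and Slc7a1 were among those with a match.

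A few genes of fatty acid oxidation rose. CPT1A joins long fatty acids to carnitine, the step that limits their entry into mitochondria and their oxidation. Cpt1a read 1239.6, 1301.0, 1007.6, 1146.5 and 1131.4 on DMSO arrays and 2563.0, 2658.0, 2487.0, 2620.9 and 2610.8 on the combination arrays. The lowest combination array stood far above the highest DMSO array, and the rise was 2.23-fold (log2 1.16, 95% interval 1.04 to 1.27, adjusted p = 4.37e-11). Acaa2, a thiolase of beta-oxidation, rose from 2557 ± 271 to 3856 ± 307 (0.60, adjusted p = 3.52e-05), the lipid-droplet coat protein Plin2 from 397 ± 28.4 to 476 ± 32.7 (0.26, adjusted p = 0.00991) and the fatty acid binding protein Fabp3 from 681 ± 49.3 to 1087 ± 109 (0.67, adjusted p = 2.59e-06). Over the whole list of oxidation genes and PPAR targets, 5 of 27 were higher (18.5%, against 2.72% of all genes), with a median of 0.01. The 1 lower member (3.7%, near the 3.23% of all genes) was Hadhb at -0.17 (adjusted p = 0.0483).

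Sterol and fatty acid synthesis genes had called members only on the lower side. SREBP factors raise these enzymes when membrane sterol is low. Of 20 measured cholesterol genes 0 were higher and 14 lower (70.0%, against 3.23% of all genes), with a median of -0.23. Msmo1, a sterol methyl oxidase, read 4581.9, 4519.1, 5053.8, 4845.2 and 4527.4 in DMSO and 3534.3, 3438.4, 3575.6, 3457.5 and 3235.0 in the combination, with no overlap (log2 -0.45, adjusted p = 7.01e-07). Hsd17b7, a sterol reductase, fell from 853 ± 102 to 553 ± 57.4 (-0.62, adjusted p = 1.83e-05), Idi1, which isomerises isopentenyl diphosphate, from 3411 ± 257 to 2492 ± 207 (-0.45, adjusted p = 2.31e-05) and Mvd, which makes that diphosphate, from 1547 ± 54.5 to 1213 ± 37.6 (-0.35, adjusted p = 3.41e-05). Fatty acid synthesis and desaturation had 7 lower (38.9%, against 3.23% of all genes) and 0 higher of 18. There the desaturase Scd2 fell from 7234 ± 328 to 5344 ± 522 (-0.44, adjusted p = 0.000191) and Srebf1, the gene of SREBP1, from 982 ± 40.4 to 790 ± 42.5 (-0.31, adjusted p = 0.00113). With only the compared arrays in the fit, 3 of those 18 were lower, and with array medians centred 4 were. The sterol element TCACNCCAC was in the window of 0 of 11 called and 0 of 5 other cholesterol genes, against 1.13% of all promoters.

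ER folding genes that passed the test were all lower, though most measured members did not pass. In the unfolded protein response, ATF6 and XBP1 raise chaperones and degradation factors through the ER stress response element, which reads CCAAT, then any 9 bases, then CCACG. Of 26 measured chaperones and folding enzymes 0 were higher and 11 lower (42.3%, against 3.23% of all genes), with a median of -0.14. Of 30 degradation and translocon genes 0 were higher and 4 lower (13.3%). Promoters of 4 of the lower genes are shown because that element, in capitals on either strand, is rare: it was in 21 of 27457 promoters, or 0.0765%. They are from RefSeq (GRCr8) at chr20:12766486-12766635 (minus strand), chr7:121789214-121789363 (plus strand), chr3:38452846-38452995 (plus strand) and chr15:102432497-102432646 (plus strand), each 5′ to 3′ along the gene over positions -170 to -21 from the start site.
Derl3: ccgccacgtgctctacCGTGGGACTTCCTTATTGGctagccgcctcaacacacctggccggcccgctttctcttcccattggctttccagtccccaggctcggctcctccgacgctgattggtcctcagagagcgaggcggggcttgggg
Creld2: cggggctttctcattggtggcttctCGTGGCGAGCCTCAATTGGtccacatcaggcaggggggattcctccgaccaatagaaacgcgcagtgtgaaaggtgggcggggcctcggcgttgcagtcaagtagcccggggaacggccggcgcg
Hspa5: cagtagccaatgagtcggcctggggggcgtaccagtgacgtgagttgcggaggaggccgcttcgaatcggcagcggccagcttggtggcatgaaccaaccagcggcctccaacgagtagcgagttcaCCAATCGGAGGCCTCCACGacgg
Dnajc3: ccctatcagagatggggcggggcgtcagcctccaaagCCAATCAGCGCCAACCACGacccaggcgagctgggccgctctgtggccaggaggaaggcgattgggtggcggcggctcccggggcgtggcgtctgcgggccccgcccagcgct
Of the 14 called-lower ER genes with a promoter in the table, 6 held the element (these 4, Ero1b and Xbp1), and of the 33 other members 3 did (Calr, Canx and Hsp90b1).

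Derl3, a channel component for misfolded proteins leaving the ER, had the lowest log2 difference of all genes tested. It read 606.2, 562.6, 656.9, 595.1 and 555.0 on DMSO arrays and 259.1, 264.6, 348.4, 347.1 and 294.8 on the combination arrays. All combination arrays lay below all DMSO arrays, at 0.51 of the level (log2 -0.98, 95% interval -1.17 to -0.8, adjusted p = 3.61e-07). The chaperone Hspa5 (BiP) read 13094.8, 13200.3, 13848.8, 13112.0 and 13601.9 in DMSO and 11542.3, 11355.8, 11796.8, 11720.1 and 11255.8 in the combination. Its fall was small but the groups did not overlap (log2 -0.21, 95% interval -0.28 to -0.15, adjusted p = 0.000106). Creld2 fell by 0.57 (adjusted p = 1e-05), Sdf2l1 by 0.55 (adjusted p = 2.58e-05), the co-chaperone Dnajc3 by 0.46 (adjusted p = 0.000231) and Edem1, a lectin that marks misfolded glycoproteins, by 0.22 (adjusted p = 0.000553). Of 20 heat shock genes, whose products fold proteins outside the ER, 0 were higher and 1 lower (5.0%, near the 3.23% of all genes). The lower one was Bag3 at -0.20 (adjusted p = 0.0239).

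**Figure D3:**
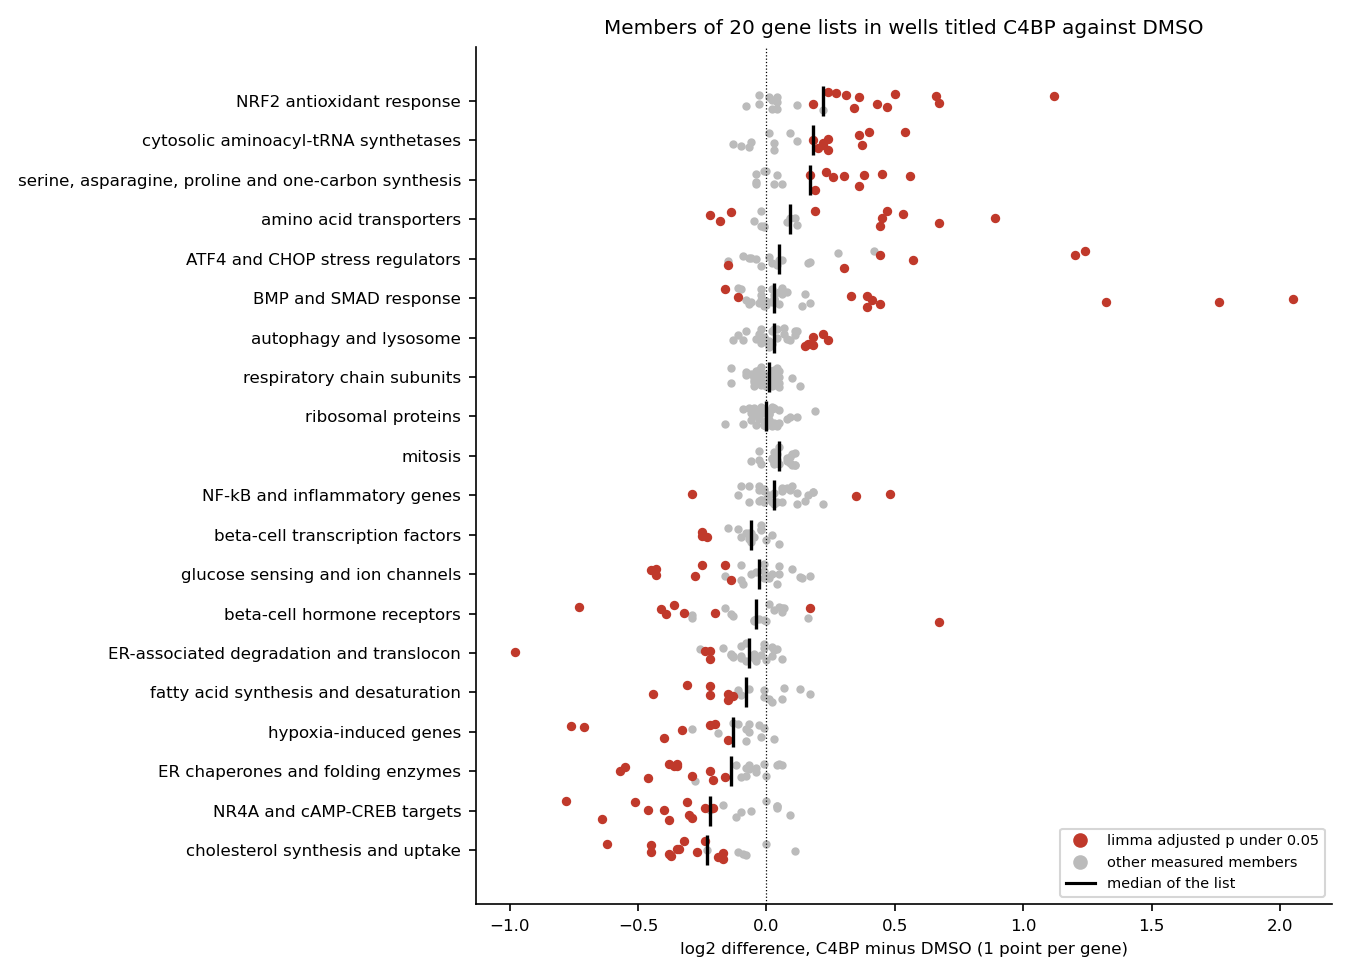
Each row is a gene list, and each point a measured member placed by its log2 difference of the combination from DMSO, with members past the adjusted p of 0.05 in red, other members in grey and a black bar at the list's median. NRF2, tRNA synthetase and serine lists held called members only to the right, with 12, 10 and 9, and cholesterol, ER chaperone and NR4A lists only to the left, with 14, 11 and 11.

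Early response genes split within one family. Jun, the main DNA-binding partner in AP-1, read 337.9, 334.4, 283.6, 393.9 and 292.6 in DMSO and 643.0, 810.9, 774.0, 819.8 and 732.6 in the combination, with a clear gap between the groups (2.31-fold, log2 1.21, 95% interval 0.99 to 1.43, adjusted p = 2.78e-07). Jund rose from 951 ± 53.4 to 1310 ± 52.3 (0.46, adjusted p = 4.42e-05), while Fos, a partner of Jun, fell from 291 ± 11.6 to 226 ± 14.1 (-0.37, adjusted p = 5.84e-05). Of 34 AP-1 and early genes, 4 were higher and 2 lower (11.8% and 5.9%, against 2.72% and 3.23% of all genes).

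Among genes induced by cAMP through CREB, all called members were lower. In beta cells this path carries the incretin signal, and the orphan receptors Nr4a1 and Nr4a2 and the kinase Sik1 are its quick targets. Of 21 measured members 0 were higher and 11 lower (52.4%, against 3.23% of all genes), with a median of -0.22. Nr4a1 read 1373.7, 1146.5, 1107.6, 1210.2 and 1033.1 in DMSO and 853.6, 572.5, 725.0, 599.2 and 691.4 in the combination. Every combination array was below every DMSO array, at 0.58 of the level (log2 -0.78, 95% interval -1.0 to -0.56, adjusted p = 6.06e-05). Sik1 fell from 671 ± 59.0 to 433 ± 52.7 (-0.64, adjusted p = 4.42e-05), the cAMP phosphodiesterase Pde7b from 916 ± 38.8 to 643 ± 27.1 (-0.51, adjusted p = 5.16e-07) and Nr4a2 from 1429 ± 96.9 to 1082 ± 14.5 (-0.40, adjusted p = 2.17e-05).

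Feedback genes of ERK signalling were lower in 3 of 24 measured members (12.5%, against 3.23% of all genes). They were higher in 1 (4.2%, near the 2.72% of all genes), Phlda1 at 0.23 (adjusted p = 0.00692). Dusp6, the phosphatase that switches ERK off, read 652.6, 615.9, 649.5, 648.2 and 606.0 in DMSO and 381.1, 328.0, 400.5, 314.5 and 318.5 in the combination. Its groups were separate, at 0.55 of the level (log2 -0.87, 95% interval -1.04 to -0.7, adjusted p = 6.48e-07). Spry4, another inhibitor of the path, lay at -0.31 (adjusted p = 0.0065) and the ETS factor Etv5 at -0.33 (adjusted p = 0.0201). Etv5 lost its call without DMSO array 1 or 4 or C4BP array 2 or 4 (adjusted p up to 0.0588).

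Among hypoxia-induced genes 0 of 19 were higher and 7 lower (36.8%, against 3.23% of all genes), with a median of -0.13. Without C4BP array 4, 4 were lower. Ankrd37, a sensitive target of the hypoxia factor HIF1, read 469.0, 506.1, 607.4, 583.4 and 575.7 in DMSO and 317.4, 358.0, 348.0, 317.1 and 278.7 in the combination. The groups did not overlap (log2 -0.76, 95% interval -0.91 to -0.61, adjusted p = 5.25e-07). Pfkfb3 and Pfkfb4, which set the level of a glycolysis activator, fell by 0.71 (adjusted p = 1.05e-06) and 0.40 (adjusted p = 1.66e-05). Glycolysis enzymes had 0 higher and 2 lower of 14 (14.3%, against 3.23% of all genes). These were Aldoc at -0.35 (adjusted p = 0.0162) and Pfkl at -0.18 (adjusted p = 0.0137). Txnip, a glucose-induced thioredoxin inhibitor, read 2667.3, 3136.7, 2835.1, 3379.4 and 3973.6 in DMSO and 2547.4, 2680.5, 2528.8, 2644.6 and 2599.7 in the combination. The DMSO arrays were widely spread and overlapped the combination at array 1, and the difference of -0.28 just missed the threshold (95% interval -0.46 to -0.11, adjusted p = 0.0535). It passed in 6 of 11 other settings and without DMSO array 1 or 3 (adjusted p down to 0.0145).

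The hormones themselves did not pass the test. Ins1 had means of 5978 ± 634 and 5812 ± 470 (log2 -0.04, 95% interval -0.2 to 0.12, adjusted p = 0.905), Ins2 of 4719 ± 410 and 4345 ± 387 (-0.12, -0.32 to 0.08, adjusted p = 0.657) and the rat cell's own Iapp of 11841 ± 523 and 11161 ± 695 (-0.09, -0.18 to 0.01, adjusted p = 0.386). Ins1 and Ins2 are near copies and may share signal. Of 18 measured beta-cell transcription factors, 0 were higher and 3 lower (16.7%, against 3.23% of all genes). Mafa, which drives insulin transcription, stood at 1319.0, 1120.1, 1336.6, 1151.2 and 1224.4 in DMSO and 1171.7, 1027.3, 923.6, 982.1 and 1079.1 in the combination, with overlapping groups (-0.25, adjusted p = 0.034), and Nkx2-2 was at -0.25 (adjusted p = 0.03). Both were weak calls. Mafa lost its call without DMSO array 1, 3 or 5 or C4BP array 2, 3 or 4 (adjusted p up to 0.101), and Nkx2-2 without DMSO array 1, 3, 4 or 5 or C4BP array 2, 3 or 4 (up to 0.0932); leaving out any of DMSO array 1, 3 or 5 or C4BP array 2, 3 or 4 left 1 lower factor. Slc2a2, the beta-cell glucose transporter GLUT2, fell by 0.14 with a narrow spread, from 10904 ± 127 to 9893 ± 181 (adjusted p = 0.00483), and not past the threshold when the 10 compared arrays were fitted alone (adjusted p up to 0.0775).

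Some channels and receptors of beta cells were lower. Of 26 glucose-sensing and channel genes 0 were higher and 7 lower (26.9%, against 3.23% of all genes). When the compared arrays were fitted alone, 4 were lower. The ER calcium channel Itpr1 fell from 2235 ± 155 to 1657 ± 99.3 (-0.43, adjusted p = 3.01e-05), the chloride importer Slc12a2 from 2076 ± 162 to 1542 ± 98.6 (-0.43, adjusted p = 3.2e-05) and the voltage-gated calcium channel Cacna1a from 2425 ± 289 to 1767 ± 159 (-0.45, adjusted p = 0.000385). Of 26 hormone receptors 2 were higher and 6 lower (7.7% and 23.1%, against 2.72% and 3.23% of all genes). The dopamine receptor Drd2, which restrains insulin release, read 570.4, 452.0, 443.1, 491.0 and 438.1 in DMSO and 871.2, 847.6, 760.9, 663.7 and 674.6 in the combination, with separate groups (log2 0.67, adjusted p = 5.42e-05). Vdr, the vitamin D receptor, read 2091.5, 1819.2, 1758.9, 1931.3 and 1806.9 in DMSO and 1238.5, 1183.5, 1131.3, 1085.1 and 1051.2 in the combination. It stood at 0.6 of the DMSO level without overlap (log2 -0.73, 95% interval -0.86 to -0.59, adjusted p = 4.76e-07). The somatostatin receptor Sstr1 fell by 0.41 (adjusted p = 0.003) and the lipid receptor Gpr119 by 0.32 (adjusted p = 0.0024). Sytl4 (granuphilin), which docks insulin granules, fell by 0.44 (adjusted p = 0.00136) in an exocytosis list of 22 with 2 lower members (9.1%, against 3.23% of all genes) and 1 higher, Syt11 at 0.20 (adjusted p = 0.0115). Of 16 amylin receptor and amyloid-degrading protease genes 1 was higher and 2 lower (6.2% and 12.5%, against 2.72% and 3.23% of all genes). Ramp1, a subunit of amylin receptors, fell by 0.32 (adjusted p = 0.000656). The other receptor genes Calcr at -0.08 (adjusted p = 0.765), Ramp2 at 0.13 (adjusted p = 0.304) and Ramp3 at 0.02 (adjusted p = 0.96) did not pass.

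Of 34 NF-kB and inflammatory genes 2 were higher and 1 lower (5.9% and 2.9%, near the 2.72% and 3.23% of all genes). The chemokine Cxcl10 rose from 1014 ± 72.7 to 1411 ± 119 (0.48, adjusted p = 1.23e-05) and Relb, an NF-kB subunit, from 457 ± 17.4 to 582 ± 44.8 (0.35, adjusted p = 0.000615). Of 23 BCL2-family and apoptosis genes 3 were higher (13.0%, against 2.72% of all genes) and 1 lower (4.3%, near the 3.23% of all genes). Hrk, a death activator, rose by 0.42 (adjusted p = 0.00019), while Cflar, which blocks death-receptor caspases, fell by 0.47 (adjusted p = 7.52e-05). Complement genes had 1 of 26 higher (3.8%, near the 2.72% of all genes), the chaperone clusterin (Clu) at 0.15 (adjusted p = 0.00644), and 0 lower. Interferon-stimulated genes had 0 of 19 in either direction by limma, with 3 at an unadjusted p under 0.05. Of 18 p53 targets 1, Gdf15, was higher (5.6%, against 2.72% of all genes). Lower were 3 (16.7%, against 3.23%), Plk2, Ccng2 and Aen at -0.34, -0.22 and -0.20. Of these 3, 0 stayed called without C4BP array 2 and 1 without DMSO array 2, 4 or 5 or C4BP array 1.

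Several of the largest falls fell outside these groups. F3, tissue factor, read 2939.5, 2692.8, 3046.7, 2533.5 and 3086.7 in DMSO and 1947.5, 1614.8, 1742.6, 1761.1 and 1762.7 in the combination, with no overlap (log2 -0.69, 95% interval -0.83 to -0.56, adjusted p = 4e-07). Mfsd2a, a carrier of lysophospholipids, fell from 3000 ± 190 to 1753 ± 97.1 (-0.77, adjusted p = 1.97e-07) and the sulfate carrier Slc26a2 from 2284 ± 121 to 1393 ± 115 (-0.72, adjusted p = 5.59e-08). Fyb1, an adaptor protein, was at -0.92 (adjusted p = 0.0014), Tmem215 at -0.88 (adjusted p = 3.2e-05), the water channel Aqp5 at -0.83 (adjusted p = 1e-06) and the heparan sulfate enzyme Ndst4 at -0.72 (adjusted p = 3.78e-06). Ndst4 was dim, at 165.3 to 189.5 on DMSO arrays and 96.9 to 120.7 on combination arrays, with the latter below the median of all probe sets, and was not shown to be above background. Of 29 heparan sulfate and extracellular matrix genes, Ndst4 and F3 among them, 5 were lower and 1 higher (17.2% and 3.4%, against 3.23% and 2.72% of all genes). The corepressor Tle3 rose from 335 ± 27.3 to 560 ± 35.6 (0.74, adjusted p = 3.61e-07).

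Whole processes had 0 called members in either direction: mitosis (22 measured), DNA replication (23), respiratory chain subunits (48), ribosomal proteins (42), ribosome biogenesis (29), proteasome subunits (32) and Wnt targets (14). Their medians ran from -0.04 to 0.05. At an unadjusted limma p under 0.05 they had 5, 5, 1, 0, 2, 0 and 2 members, in that order. Autophagy and lysosome genes had 6 of 32 higher (18.8%, against 2.72% of all genes) and 0 lower. Only 2 were higher without DMSO array 2, and 3 without DMSO array 5 or C4BP array 4. Markers of other cell types moved little. Of 11 alpha, delta and PP cell markers 1 was higher (9.1%, against 2.72% of all genes), Pyy at 0.20 (adjusted p = 0.0298). Of 16 acinar and duct markers 1 was lower (6.2%, against 3.23%), Ctrb1 at -0.21 (adjusted p = 0.00929). Among the fibroblast markers 0 of 11, and among the immune and endothelial markers 0 of 12, passed the limma test (2 and 1 at an unadjusted p under 0.05). Their part in the results was not tested.

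The combination was also set against each single agent, in contrasts that reuse the combination arrays and so are not independent of the comparison with DMSO. Against the IAPP arrays 110 genes passed (0.606%), 68 higher and 42 lower in the combination. Against the C4BPD arrays 431 passed (2.37%), 137 higher and 294 lower. A difference that missed the threshold does not show that levels were equal.

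Id1 and Id3 were near DMSO in the IAPP arrays, at means of 608 ± 42.2 and 301 ± 33.1, and high in the C4BPD arrays, at 2525 ± 148 and 1638 ± 244. The combination exceeded IAPP by 1.89 in Id1 (adjusted p = 1.25e-14) and by 2.25 in Id3 (adjusted p = 8.35e-10). Against C4BPD the differences were -0.16 (adjusted p = 0.176) and -0.19 (adjusted p = 0.541). Tfrc had means of 5597 ± 106 with IAPP and 4432 ± 156 with C4BPD, and was lower in the combination than in either, by -0.60 (adjusted p = 1.18e-09) and -0.26 (adjusted p = 0.00014). Ankrd37 (478 ± 18.0 with IAPP, 347 ± 18.6 with C4BPD) differed from IAPP by -0.56 (adjusted p = 0.000169) and from C4BPD by -0.11 (adjusted p = 0.55), and Pfkfb3 (810 ± 21.7 and 696 ± 47.0) by -0.47 (adjusted p = 0.00174) and -0.24 (adjusted p = 0.0767).

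Other genes passed against C4BPD and not against IAPP. Cpt1a had means of 2476 ± 37.5 with IAPP and 1445 ± 98.1 with C4BPD, and the combination differed by 0.06 from the former (adjusted p = 0.933) and by 0.84 from the latter (adjusted p = 2.49e-08). Jun had means of 965 ± 183 with IAPP and 378 ± 24.5 with C4BPD; the combination differed by -0.34 from IAPP (adjusted p = 0.214) and by 1.00 from C4BPD (adjusted p = 8.71e-06). Nr4a1 had means of 654 ± 80.2 and 1374 ± 161, with differences of 0.07 (adjusted p = 0.987) and -1.0 (adjusted p = 8.97e-06), and Vdr of 1097 ± 105 and 2141 ± 134, with 0.06 (adjusted p = 0.967) and -0.91 (adjusted p = 7.87e-08). F3 (-0.71, adjusted p = 7.87e-07), Dusp6 (-0.78, adjusted p = 8.71e-06), Derl3 (-0.45, adjusted p = 0.00496) and Fabp3 (0.57, adjusted p = 5.19e-05) also differed from C4BPD, where their means were 2888 ± 115, 599 ± 84.4, 411 ± 26.4 and 732 ± 72.2. From IAPP they differed by -0.06, -0.32, -0.27 and 0.02, short of the threshold (limma adjusted p = 0.953, 0.0984, 0.236 and 0.998). Derl3 was itself lower with C4BPD than in DMSO (-0.53, limma adjusted p = 0.00124). Its call against C4BPD was lost with title number 1 left out of all groups (adjusted p = 0.0513).

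In Hmox1 and Mt1f the combination was above both single agents. Hmox1 had means of 410 ± 38.3 with IAPP and 260 ± 14.7 with C4BPD, and the combination was higher by 0.38 (adjusted p = 0.00734) and 1.03 (adjusted p = 2.49e-08). Mt1f had means of 3215 ± 129 and 2412 ± 142, and the combination was higher by 0.42 than IAPP (adjusted p = 0.00982) and by 0.84 than C4BPD (adjusted p = 1.19e-06). Mt1 was at 6984 ± 379 with IAPP and 5577 ± 236 with C4BPD, and differed by 0.41 from IAPP, short of the threshold (adjusted p = 0.0746), and by 0.74 from C4BPD (adjusted p = 0.00018). Nqo1 (956 ± 78.6 with IAPP, 1105 ± 65.3 with C4BPD) was higher than with IAPP by 0.42 (adjusted p = 0.0043), and its difference of 0.20 from C4BPD did not pass (adjusted p = 0.152). With the arrays of 1 title number left out of all groups, Hmox1 lost its call against IAPP for 3 of the 5 numbers (adjusted p up to 0.089), Mt1f for 4 (up to 0.101), Nqo1 for 2 (up to 0.104) and Pfkfb3 for 1 (0.0577).

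**Figure D4:**
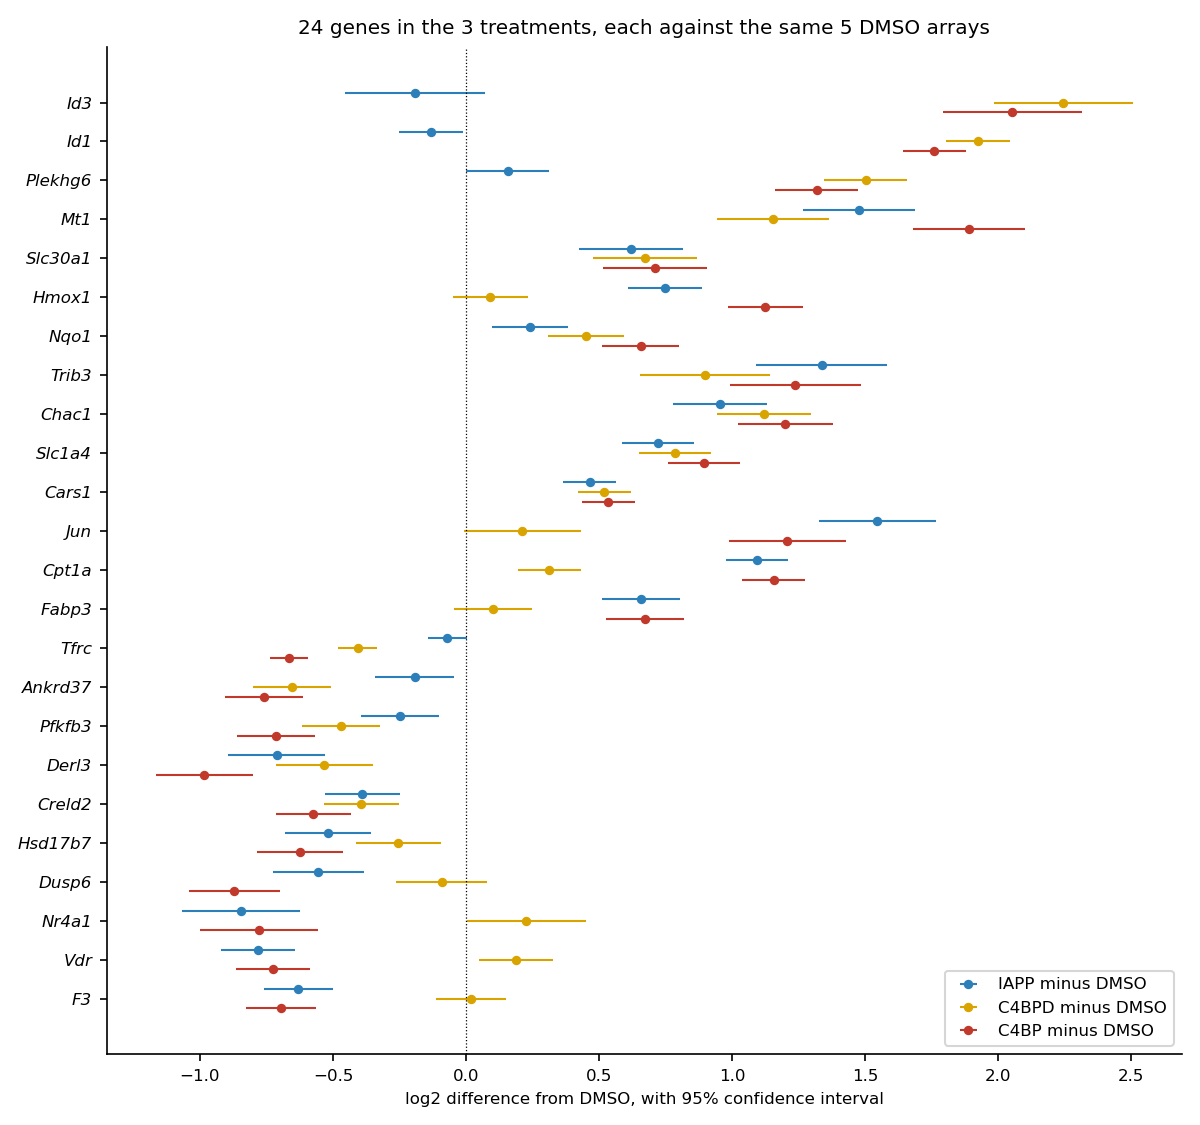
Log2 differences from the same 5 DMSO arrays for IAPP, C4BPD and the combination, with 95% intervals of the limma fit, for 24 selected genes. Id1 and Id3 lie near 0 with IAPP and at 1.92 and 2.24 with C4BPD, and Cpt1a and Jun lie at 1.09 and 1.55 with IAPP.

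Whether the effect of IAPP differed with C4BP present was tested as an interaction, the combination minus C4BPD compared with IAPP minus DMSO. Of all genes 9 passed (0.0495%), with 688 at an unadjusted p under 0.05, and all 9 were negative: the difference was smaller, or more negative, with C4BP than without. They were Trib3, Chac1, Slc1a4, Cars1 and Iars1 of the amino acid group and Stap2 (-0.46), Klf6 (-0.39), Plppr1 (-0.38) and Wipi1 (-0.37), the last 4 named after their values were seen. Trib3 had means of 661 ± 145 with IAPP, 482 ± 55.1 with C4BPD and 607 ± 35.6 in the combination. Its IAPP effect was 1.34 without C4BP and 0.34 with it (interaction -1.0, adjusted p = 0.0221). The C4BPD arrays were above DMSO by 0.90 (limma adjusted p = 0.000103), and the combination differed from IAPP by -0.10 (adjusted p = 0.966). Chac1 had means of 675 ± 52.0, 761 ± 109 and 799 ± 15.1 in the same order, and effects of 0.95 and 0.08 (-0.87, adjusted p = 0.00949). Its C4BPD arrays were above DMSO by 1.12 (limma adjusted p = 7.93e-08), and the combination differed from IAPP by 0.25 (adjusted p = 0.301). A smaller IAPP effect with C4BP is thus no sign that levels fell below those with IAPP. The labels do not state whether C4BPD wells held DMSO, which the interaction takes as shared. The other named members of the amino acid group were Slc1a4 at -0.61 (adjusted p = 0.0118), Cars1 at -0.45 (adjusted p = 0.0118) and Iars1 at -0.34 (adjusted p = 0.0221). Their C4BPD arrays were above DMSO too, by 0.78, 0.52 and 0.32. These calls were near the limit: Trib3 and Iars1 lost theirs without DMSO array 2, C4BP array 3 or C4BP array 4 (adjusted p from 0.052 to 0.0574), and all 5 lost theirs when all probe sets were tested together (from 0.0503 to 0.0772). Cars1 and Iars1 also lost theirs with array medians centred (0.0573 and 0.0776).

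Beyond the named genes, 904 of 36495 probe sets passed when all were tested together (2.48%). Of the 18329 that do not represent a named gene, 149 passed, 72 higher and 77 lower. They are not described one by one, since no single gene symbol was used for them.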

How the data were processed

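Intensities were measured on Affymetrix Rat Gene 2.0 arrays. The deposited values are linear intensities per probe set, normalized and summarised by the authors with Affymetrix Expression Console, per the submitters' processing notes; its version and algorithm: not given in the sources used here. Of 36685 probe sets, 190 controls were left out, and genes were named from the platform annotation, in which 18511 probe sets carry 1 symbol, 575 several and 17599 none. The brightest probe set stood for each of 18166 genes.

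The log2 of each intensity was fitted with limma 3.58.1 in R 4.3.3, as 4 group means over 20 arrays with 16 residual degrees of freedom. Tests were two-sided, with Benjamini-Hochberg adjustment over all genes and a threshold of 0.05. Levels are arithmetic means with SD, and folds divide geometric means. The labels do not tie wells to clones, so p-values measure the spread between these samples, which may be technical. Normalization, the samples fitted, the number as a block, dim genes, an offset of 32, array weights, the variance model, probe set choice, grouping label and left-out arrays were varied.

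Genes are named by a rule: the 20 largest differences each way among called genes, up to 4 called members of each of 47 lists each way with the smallest p, and a few fixed genes; the text gives a selection. The members and lists were chosen with earlier results of these data known. Promoter windows are RefSeq's for GRCr8. The fit was tested on simulated data. Figures were drawn with matplotlib 3.10.9.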

Additional observations from a re-analysis of the deposited data

Results flagged for a closer look

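Among the 86 genes named, each group of 5 arrays was searched for 1 array far from the other 4 by Dixon's criterion (gap over range above 0.71), which chance alone meets in about 1 in 20 groups. It was met 13 times in 172 groups. In DMSO, array 1 stood apart in Ins1 (7092.2, next 5877.6), Mfsd2a (2680.7, next 3016.2) and Slc26a2 (2497.4, next 2247.3). Array 3 did so in Cars1 (986.5, next 902.0), Psat1 (5378.5, next 4857.5) and Cflar (454.8, next 421.8), and array 5 in Aars1 (2354.2, next 2211.4) and Pfkfb3 (1139.5, next 952.9). In the combination, array 1 stood low in Chac1 (772.6, next 801.8) and Psat1 (6450.1, next 6733.8), array 2 low in Cars1 (1205.7, next 1330.1), array 3 low in Srxn1 (498.0, next 513.8) and array 5 high in Cacna1a (2046.9, next 1740.8).

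The interaction term of the limma fit, which asks whether the effect of IAPP differed with and without C4BP, passed in 5 of the named genes, each of which lost the call in 4 or 5 of the 5 fits with a title number left out. The log2 values were -1.0 for Trib3 (adjusted p = 0.0221), -0.87 for Chac1 (0.00949), -0.61 for Slc1a4 (0.0118), -0.45 for Cars1 (0.0118) and -0.34 for Iars1 (0.0221). All 5 genes were also higher in the C4BPD arrays than in DMSO.

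Outside the named genes, 149 of 18329 probe sets that represent no named gene passed the threshold between the combination and DMSO.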

How the results depend on the processing

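The counts moved with the fit. They were 1082 as reported, 663 (291 higher, 372 lower) with only the compared arrays, 1884 (890 higher, 994 lower) with the replicate block, and 0 in either direction by limma with groups from the treatment field (653 at an unadjusted p under 0.05). With 1 title number left out of all groups the counts ran from 615 to 1059, 290 to 437 for higher genes and for lower ones 305 to 622, and with 1 of the 10 arrays left out from 844 to 1011 (389 to 457 higher, 455 to 573 lower). The other settings tried (arrays centred on their median, quantile normalization, block in the compared arrays alone, dim genes left out, an offset of 32, array weights, intensity trend with robust variances, mean of a gene's probe sets, all probe sets together) kept the count within 1.5 times; centred, 338 were higher and 472 lower. The main fit left the title numbers out, because a rule that every same-numbered pair correlate above 0.1 was not met. Deviations of same-numbered DMSO and combination arrays correlated at 0.271, 0.010, 0.034, 0.165 and 0.170. All were positive, and 3 of 5 arrays matched their own number best, so some variation was shared within numbers. Whether the numbers are true pairs was not settled. With the replicate block, Txnip had an adjusted p of 0.0143 (0.11 in the compared arrays alone) and Ddit3 0.146 (0.136). Of the 81 called genes named, 5 lost their call on leaving out an array (Bach1, Etv5, Mafa, Nkx2-2 and Slc40a1), 8 on leaving out a number (these with Ftl1, Plin2 and Spry4; adjusted p up to 0.324) and 7 under the other settings (the first 5 with Ftl1 and Slc2a2; up to 0.216). Among lists, 2 to 4 iron genes were higher over the other settings and 0 to 2 with a number left out, against 4; ER degradation genes lower ran from 3 to 8 against 4, hormone receptors lower from 5 to 10 against 6, and fatty acid synthesis lower from 2 to 8 against 7. The 5 interaction calls named were lost in 4 or 5 of the 5 fits with a number left out (adjusted p up to 0.314). The causes were not tested. The array number, 5 a group, and dim signal limit the precision. On simulated data of 18166 genes the test called 96 of 100 genes changed by 0.5 log2 and 100 of 100 changed by 1, with 7 unchanged genes called. Noise there was drawn independently for each gene and array, so the simulation cannot speak to errors shared between arrays or genes. Smaller changes, such as the median of 0.25 among called genes, were not simulated.

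Grouped by the treatment field, 78 of the 81 called genes turned and none of the 81 passed (smallest adjusted p over all genes 0.612). The values below also include the uncalled Txnip, Ins1, Ins2 and Iapp, which turned too. By the field, the DMSO group is mostly arrays titled C4BP, with arrays titled DMSO and C4BPD beside them. The field's group for IAPP with C4BP holds arrays titled DMSO, IAPP and C4BPD, and no array titled C4BP. The field's contrast with DMSO thus runs in part opposite to that of the titles. Whether this accounts for each turned value was not tested. Against DMSO, the log2 differences that turned negative were Id1 -1.14, Id3 -1.12, Plekhg6 -0.66, Mt1 -0.63, Mt1f -0.55, Chac1 -0.44, Hmox1 -0.35, Trib3 -0.32, Slc1a4 -0.31, Cpt1a -0.26, Drd2 -0.24 and Tle3 -0.24. Smaller negative values were found for Smad9 -0.23, Nqo1 -0.23, Acaa2 -0.22, Slc30a1 -0.20, Psat1 -0.20, Cars1 -0.19, Slc7a1 -0.17, Atf5 -0.16, Asns -0.15, Mars1 -0.15, Srxn1 -0.15 and Gclm -0.15. The remaining negative ones were Jund -0.13, Fabp3 -0.13, Cxcl10 -0.11, Gdf15 -0.08, Jun -0.07, Iars1 -0.07, Aars1 -0.07, Bach1 -0.06, Hrk -0.06, Slc6a9 -0.06, Ftl1 -0.05 and Relb -0.05. Those that turned positive were Aqp5 0.39, Pfkfb3 0.37, Ankrd37 0.36, Txnip 0.36, Tfrc 0.33, Hsd17b7 0.28, Dusp6 0.28, Tmem215 0.28, Derl3 0.27, Slc12a2 0.27, Cacna1a 0.21 and Mfsd2a 0.21. Next came Slc26a2 0.21, Itpr1 0.19, Ramp1 0.18, Msmo1 0.17, Mvd 0.17, Scd2 0.17, Ndst4 0.17, F3 0.17, Nkx2-2 0.16, Sdf2l1 0.14, Vdr 0.14 and Gpr119 0.13. Smaller positive values were found for Idi1 0.13, Pfkfb4 0.12, Creld2 0.12, Cflar 0.11, Srebf1 0.09, Hspa5 0.08, Nr4a1 0.08, Dnajc3 0.07, Sik1 0.06, Fyb1 0.06, Sstr1 0.05 and Ins1 0.05. Near 0 stood Spry4 0.04, Etv5 0.04, Edem1 0.03, Nr4a2 0.02, Slc2a2 0.02, Fos 0.01, Ins2 0.01, Iapp 0.01, Sytl4 0.01 and Pde7b 0.00. Against IAPP the turned values were Id1 -0.81, Id3 -0.75, Tfrc 0.20, Hmox1 -0.06, Nqo1 -0.23, Ankrd37 0.31, Pfkfb3 0.22, Mt1f -0.21, Cpt1a -0.16, Nr4a1 -0.19 and Vdr -0.12. Against C4BPD they were Jun -0.32, Cpt1a -0.31, Hmox1 -0.20, Mt1 -0.41, Fabp3 -0.09, Nr4a1 0.12, Vdr 0.17, F3 0.20, Dusp6 0.15, Derl3 0.12, Tfrc 0.12 and Ankrd37 0.16. On leaving out arrays, the uncalled difference of Ins1 from DMSO ran from -0.11 to 0.03, and that of Nr4a1 from IAPP from -0.01 to 0.13.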
